A study of Mus musculus with 4 samples.

Results

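Interferon-stimulated genes are genes whose transcription rises when a cell senses interferon, and 50 of them were followed here in mouse bone marrow-derived macrophages. The members are a named list of the interferon system, from the cytokine gene Ifnb1 and its receptor chains to antiviral effectors. A gene counted as measured when the array annotation gave at least 1 probe set that names this gene alone, and the brightest such probe set stands for it. On this rule 46 of the 50 were measured, of 18193 genes in all, through 79 probe sets, with 24 members read by 1 probe set and 22 by several. Isg15 and Ifi205 were not measured because their probe sets carry several genes in the annotation, and Ifi44 and Gbp5 had no probe set named for them in it.

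The study asked which inflammatory genes Hes1 and Hey1 regulate in macrophages, and used 4 arrays, 1 per group, from C57BL/6 marrow. Cells grew 5 days with 10% serum and with 10% supernatant of L929 cells, which secrete the growth factor CSF1. The groups were double knockout of Hes1 and Hey1 (DKO) with 2 ng/ml lipopolysaccharide (LPS) for 3 h, DKO left untreated, wild type (WT) with the same LPS, and WT left untreated. LPS is the bacterial cell wall component sensed by Toll-like receptor 4 (TLR4). The labels name no allele, Cre driver, agent to induce the deletion, number of mice or pooling for the knockout. With 1 array a group there are no replicates, so no difference below has an error or a test, and a gene is called higher or lower at 2-fold.

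In macrophages TLR4 signals through 2 adaptor routes. The route through the adaptor TRIF activates the transcription factor IRF3, which turns on Ifnb1. Secreted interferon-beta binds the receptor of Ifnar1 and Ifnar2 on the same or neighbouring cells, and the kinases JAK1 and TYK2 then activate the transcription factor complex ISGF3, which holds STAT2 and IRF9. ISGF3 binds the interferon-stimulated response element (ISRE) in the promoters of many of these genes, while gamma-activated sites (GAS) are known from the response to interferon-gamma. Macrophages are also known to keep a low interferon tone without any stimulus, so that many of the genes are already transcribed at rest.

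Promoters of the members carried this element more often than promoters in general. Shown are the 8 members with the highest signed LPS effect in either genotype (members that read lower with LPS rank last) among those with a match before the start site, because they set strongly and weakly responding genes beside the same letters. The ISRE core was searched as GAAANNGAAA on both strands of windows from 250 bases before to 50 after each start (RefSeq, GRCm38.p6). Of 48 windows of 39 members, 45.8% held it, against 3.44% of all 32851 windows. GAS, searched as TTCNNNGAA, stood in 27.1% of the members' windows and 8.30% of all. An NF-kB form, GGGANTTTCC or GGGGNTTTCC, stood in 1 member window and 0.807% of all, the E-box CACGTG in 1 and 7.15%, and the class C site CACGCG in 2 and 9.27%. E-box and class C letters are those known for HES and HEY factors. The 120 bases shown for each gene are 5′ to 3′ on the gene's strand, with the ISRE core in capitals; a match on the opposite strand reads TTTCNNTTTC. The 2 matches overlap in Gbp3 and in Oas1a.
Gbp2: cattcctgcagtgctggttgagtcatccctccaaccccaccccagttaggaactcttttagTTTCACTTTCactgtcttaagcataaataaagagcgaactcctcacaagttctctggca
Rsad2: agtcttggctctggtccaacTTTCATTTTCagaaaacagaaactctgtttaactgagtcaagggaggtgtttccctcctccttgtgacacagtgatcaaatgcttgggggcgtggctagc
Ifit1: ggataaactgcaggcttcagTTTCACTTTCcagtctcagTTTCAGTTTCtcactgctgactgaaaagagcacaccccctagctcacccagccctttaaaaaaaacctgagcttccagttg
Gbp3: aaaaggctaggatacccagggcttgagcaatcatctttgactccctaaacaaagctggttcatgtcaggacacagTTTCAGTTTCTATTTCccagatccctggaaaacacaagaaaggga
Igtp: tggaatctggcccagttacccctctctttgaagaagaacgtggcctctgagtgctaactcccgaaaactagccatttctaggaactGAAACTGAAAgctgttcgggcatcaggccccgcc
Irgm2: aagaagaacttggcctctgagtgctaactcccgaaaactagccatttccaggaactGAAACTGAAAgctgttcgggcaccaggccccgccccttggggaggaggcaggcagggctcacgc
Oas1a: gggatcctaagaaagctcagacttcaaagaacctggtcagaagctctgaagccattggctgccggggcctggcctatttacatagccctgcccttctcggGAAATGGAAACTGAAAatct
Ifit3: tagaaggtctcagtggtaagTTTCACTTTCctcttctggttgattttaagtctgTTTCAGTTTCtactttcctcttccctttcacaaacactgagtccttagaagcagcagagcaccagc
Gbp2's stretch is chr3:142620543-142620662, plus strand. Rsad2's stretch is chr12:26456473-26456592, minus strand. Ifit1's stretch is chr19:34640765-34640884, plus strand. Gbp3's stretch is chr3:142559924-142560043, plus strand. Igtp's stretch is chr11:58199436-58199555, plus strand. Irgm2's stretch is chr11:58214857-58214976, plus strand. Oas1a's stretch is chr5:120907526-120907645, minus strand. Ifit3's stretch is chr19:34583353-34583472, plus strand. A match is a description of letters and not of binding. Among the 35 measured members with a window, the 18 with an ISRE core had median log2 LPS effects of 0.27 in DKO and 0.29 in WT cells. The 17 without had 0.27 and 0.43. They include Ifnb1, which counts at its bound in DKO cells and, having no difference in WT cells, is left out there. The medians thus lay close in DKO cells, and in WT cells the genes without these letters had the higher one.

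Array quality touches the results as follows. As deposited each array had a trimmed mean of 500 units. For the log2 differences values under the pooled median of 52.9 intensity units were set to that floor. A difference with 1 side under the floor is a bound. The untreated WT array read dim probe sets high: among 19618 under the floor on all arrays it stood above the mean of the others by a median log2 of 0.24, against 0.015 among 9369 of at least 500 units. Hes1 read 5.80 and 2.14 in DKO cells with LPS and untreated, against 26.7 and 45.4 in WT cells, and Hey1 read 10.2 and 9.17 against 17.3 and 57.2; of these only Hey1 in untreated WT cells lay above the floor, so the knockout labels are checked weakly. Of the members, 45 lay above the floor on all 4 arrays, and 1, Ifnb1, did not. All 6 macrophage markers (Csf1r, Adgre1, Cd68, Itgam, Mertk and Lyz2) were above it on every array. Under it on every array were all the measured markers of fibroblasts (5), B cells (4), mast cells and basophils (4) and conventional dendritic cells (4). Of neutrophil markers 4 of 5 were under it, of T and NK cell markers 3 of 4, of erythroid markers 1 of 2, and of plasmacytoid dendritic cells, the professional interferon producers, 2 of 6, Siglech and Ccr9. The other plasmacytoid markers, Bst2, Tcf4, Irf8 and Klk1, are not specific to those cells.

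**Figure D1:**
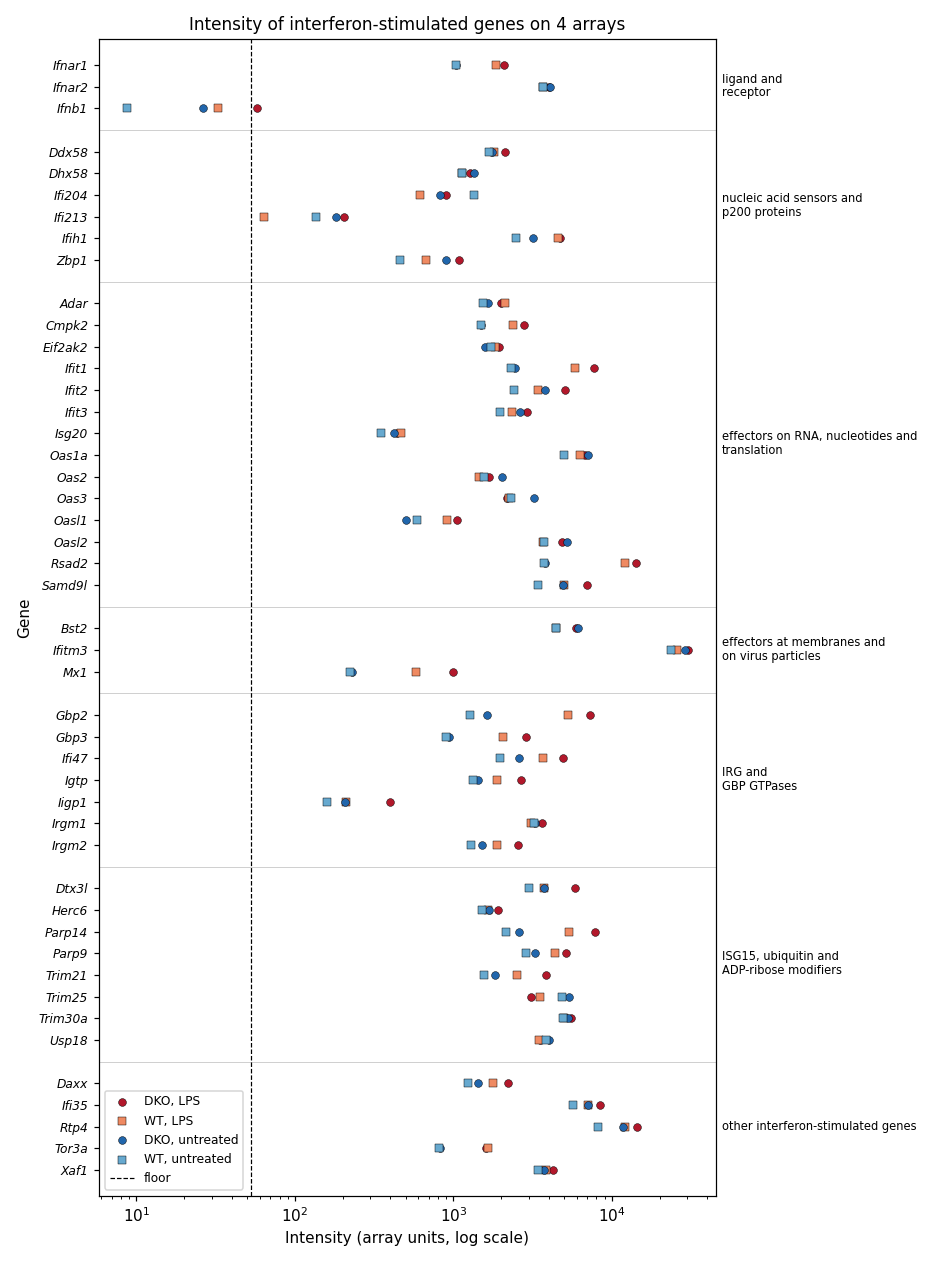
Intensity of each of the 46 measured members on the 4 arrays, 1 point per array, on a log axis in array units, with the floor of 52.9 units as a dashed line. Only Ifnb1 has points left of the floor, and the spread among a gene's 4 points is small for most members.

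At 3 h of LPS a few interferon-stimulated genes were higher past 2-fold in both genotypes, and most differed by less than that. In DKO cells 8 of 46 members were higher at 2-fold and 0 lower, where 4.66% of all 11240 genes were higher and 4.77% lower. In WT cells 7 of 45 were higher and 2 lower, where 3.36% of 11489 genes were higher and 3.41% lower. By any amount 37 of 46 read higher with LPS in DKO cells, against 39.1% of all genes, and 36 of 45 in WT cells, against 40.8%. In both genotypes 33 of 45 read higher, against 27.7% of 10901 genes, and 6 lower, against 48%. At 1.5-fold 18 were higher and 1 lower in DKO cells, where 8.94% and 14.5% of all genes passed, and 14 were higher and 2 lower in WT cells, where 6.93% and 12.9% passed. The median log2 effect was 0.28 in DKO and 0.41 in WT cells, against -0.10 and -0.086 over all genes. For comparison, 16 NF-kB type LPS targets such as Tnf and Cxcl1 had medians of 5.18 and 4.38, with all 16 higher in both genotypes and genes under the floor at rest counted at their bound. Cultures are bulk samples, in which fewer responding cells and less RNA per cell cannot be told apart.

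The ligand gene itself was barely seen. Ifnb1, which encodes interferon-beta, read 57.9 in DKO cells with LPS, against 26.3 untreated, and 32.9 in WT cells with LPS, against 8.70 untreated. The first value alone cleared the floor, which gives a bound of at least 1.09-fold both for LPS in DKO cells and for DKO against WT under LPS. Ifnar1, a receptor chain, read 2081 with LPS against 1041 untreated in DKO cells, and 1856 against 1042 in WT cells. Its log2 effect of 0.999 in DKO cells was just short of 2-fold and was 0.83 in WT cells, and its second probe set gave 0.76 and 0.15. Ifnar2, the other chain, read 4044 against 4079.8 in DKO cells and 3701 against 3673 in WT cells, log2 effects of -0.01 and 0.01.

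The strongest responses were spread over 3 kinds of effector. Gbp2, a guanylate-binding GTPase that attacks pathogen vacuoles, read 7234 with LPS against 1629 untreated in DKO cells, and 5308 against 1276 in WT cells, or 4.44-fold and 4.16-fold higher. Mx1, a dynamin-like antiviral GTPase whose gene is defective in C57BL/6 mice, read 989 against 229 in DKO cells and 584 against 224 in WT cells, or 4.33-fold and 2.61-fold higher. Rsad2 encodes viperin, which makes a chain-terminating nucleotide. Its values were 14229 against 3783 in DKO cells and 12111 against 3738 in WT cells, or 3.76-fold and 3.24-fold higher, and its other 2 probe sets gave log2 effects of 1.89 each in DKO cells and of 1.49 and 1.504 in WT cells. In these genes both LPS arrays lay above both untreated arrays.

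Ifit1, Gbp3 and Parp14 also passed 2-fold in both genotypes. Ifit1, which binds viral RNA lacking a host cap, read 7704 with LPS against 2457 untreated in DKO cells and 5843 against 2307 in WT cells (3.13-fold and 2.53-fold). Gbp3 read 2856 against 944 in DKO cells and 2067 against 895 in WT cells (3.03-fold and 2.31-fold). Parp14, an ADP-ribosyltransferase, read 7859 against 2599 in DKO cells and 5405 against 2160.2 in WT cells (log2 1.60 and 1.32). Its second probe set gave log2 effects of 1.72 in DKO and 1.14 in WT cells.

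A few members passed the mark in 1 genotype only, without a test of the difference between genotypes. Oasl1, which restrains IRF7 translation, read 1054 with LPS against 502 untreated in DKO cells, 2.10-fold, and 911 against 590.0 in WT cells, 1.54-fold. Trim21, a ubiquitin ligase and antibody receptor of the cytosol, read 3863 against 1825 in DKO cells, 2.12-fold, and 2539 against 1572 in WT cells, 1.61-fold. Tor3a, a torsin-family ATPase, read 1609.5 with LPS against 821 untreated in DKO cells, 1.96-fold, and 1659 against 812 in WT cells, 2.04-fold. Its other 2 probe sets gave log2 effects of 0.50 and 0.58 in DKO and 0.52 and 0.62 in WT cells. All 3 read higher with LPS in both genotypes.

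The IRG and GBP GTPases, which guard against intracellular pathogens, had the highest group median of LPS effects: 0.92 over 7 members in DKO cells, with 7 positive, and 0.56 in WT cells, with 6 positive. Of all genes 39.1% were positive in DKO and 40.8% in WT cells. Ifi47 reached 0.92 in DKO and 0.90 in WT cells, Igtp 0.91 and 0.51, Irgm2 0.74 and 0.56, and Iigp1 0.93 and 0.41. Iigp1 read 397 with LPS against 209 untreated in DKO cells and 211 against 159 in WT cells, and its second probe set gave 0.96 and -0.24, the opposite direction in WT cells. Irgm1 differed from its relatives with 0.15 and -0.07. In this group 2 of 7, Gbp2 and Gbp3, passed 2-fold in either genotype, where 4.66% of all genes were higher in DKO and 3.36% in WT cells.

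The effectors on RNA, nucleotides and translation split. Beside Ifit1, Rsad2 and Oasl1, Cmpk2, a mitochondrial nucleotide kinase whose gene adjoins Rsad2, stood at a log2 effect of 0.90 in DKO and 0.67 in WT cells. The oligoadenylate synthetases, which make the activator of RNase L, did not follow. Oas1a read 6778 with LPS against 7081 untreated in DKO cells and 6322 against 5022 in WT cells, log2 effects of -0.06 and 0.33. Oas3 read 2185 against 3212 in DKO cells and 2229 against 2325 in WT cells (-0.56 and -0.06). Oas2 read 1672 against 2019 in DKO cells and 1451 against 1551 in WT cells (-0.27 and -0.10), and Oasl2 stood at -0.10 and -0.02. None of these 4 reached 2-fold in either direction. Ifit3 stood at 0.15 and 0.24 although its promoter stretch above holds 2 ISRE cores, as does that of Ifit1. Ifit2 (0.42 and 0.49), Samd9l (0.51 and 0.53), Eif2ak2, the RNA-activated kinase PKR (0.28 and 0.09), and Adar, an RNA deaminase (0.27 and 0.46), stayed short of 2-fold. Adar read 1993 with LPS against 1649 untreated in DKO cells and 2126 against 1543 in WT cells. The exonuclease gene Isg20 read 443 against 422 in DKO cells and 465 against 351 in WT cells (0.07 and 0.41).

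Modifiers of the ISG15 and ubiquitin systems ranged widely. Usp18, which removes ISG15 and blocks the interferon receptor, read 3541 with LPS against 3991 untreated in DKO cells and 3476 against 3838 in WT cells, log2 effects of -0.17 and -0.14. Trim25, a ligase that activates RIG-I, read 3106 against 5379 in DKO cells and 3519 against 4857 in WT cells. Its effects of -0.79 and -0.47 included the lowest of the members in DKO cells, its second probe set gave -0.94 and -0.66, and its dimmest -0.03 and -0.20. The partners Parp9 and Dtx3l, which form a complex on chromatin, stood at 0.64 and 0.65 in DKO cells and at 0.62 and 0.31 in WT cells. Herc6, the mouse ligase for ISG15, stood at 0.19 and 0.13, and Trim30a at 0.07 and 0.02. At membranes, Bst2, which tethers budding virions, and Ifitm3, which blocks virus entry, had effects of -0.04 and 0.05 in DKO cells and of -0.003 and 0.11 in WT cells. In the remaining group Daxx, a histone chaperone, stood at 0.64 in DKO and 0.52 in WT cells, Rtp4 at 0.28 and 0.55, Ifi35 at 0.25 and 0.32, and Xaf1 at 0.19 and 0.17. Rtp4's second probe set gave 0.24 and -0.90, the opposite direction in WT cells.

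Among RNA sensors, Ifih1 (MDA5) stood at 0.57 in DKO and 0.89 in WT cells, Ddx58 (RIG-I) at 0.27 and 0.10, and Dhx58 (LGP2) at -0.10 and 0.003. Zbp1, a sensor of Z-form nucleic acids that can trigger necroptosis, stood at 0.29 and 0.55. The ordering of LPS effects was alike in both genotypes, with a Spearman rho of 0.90 and a Pearson r of 0.85 over 45 members, against 0.70 and 0.84 over 9981 genes. The 2 comparisons share no array, and genes are not independent points.

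**Figure D2:**
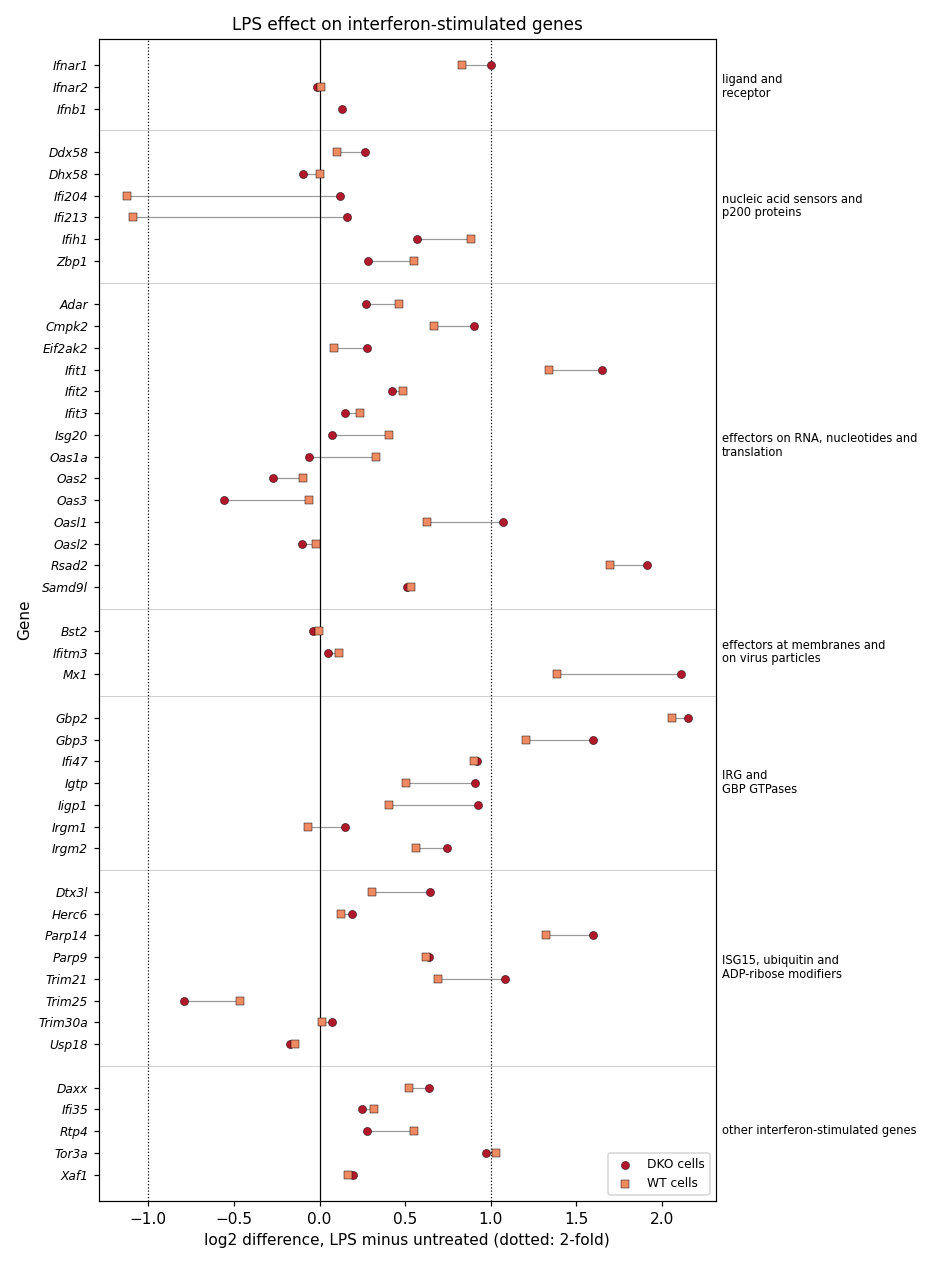
LPS effect of each measured member as a log2 difference, LPS minus untreated, in DKO cells (circles) and WT cells (squares), 1 pair of arrays each, with dotted lines at 2-fold. Circles and squares lie close for most genes, and Ifi204 and Ifi213 stand apart with WT values near -1.1 and DKO values near 0.1.

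The p200 genes Ifi204 and Ifi213, DNA-binding proteins of the Ifi200 cluster, departed from this likeness. Ifi204 read 894 with LPS against 823 untreated in DKO cells, and 617 against 1347 in WT cells. Ifi213 read 204 against 182 in DKO cells, and 63.7 against 136 in WT cells. In WT cells Ifi204 was 2.18-fold and Ifi213 2.13-fold lower with LPS, and in DKO cells their log2 effects were 0.12 and 0.16. The call for Ifi213 in WT cells was lost under 5 of the 7 other ways of processing, and that for Ifi204 under 1.

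The difference of LPS effects, DKO minus WT, was 1.25 for Ifi204 and 1.25 for Ifi213. By the brightest probe set these were the 2 members past 2-fold of 45, where 1.31% of 9981 genes were higher and 0.721% lower. Ifi213's second probe set gave 0.42 in DKO and -0.30 in WT cells, a difference of 0.73. Between these genes the RefSeq order places 3 others, of which Ifi207 read 2283 with LPS against 2266 untreated in DKO cells and 2044 against 3551 in WT cells, and Ifi209 3145 against 3020.3 and 2299 against 2063. Ifi207 was thus highest in untreated WT cells like Ifi204, and Ifi209 was not. Genes of this cluster are close copies, so probes may read more than 1 of them, which was not tested. Over all members 25 of 45 had a positive difference of LPS effects, against 43.6% of all genes, and the median was 0.03, against -0.05. With array medians set equal 14 of 45 were positive, against 20.9% of all genes. The second probe sets of Iigp1 and Rtp4 gave differences of LPS effects of 1.20 and 1.14. Of 47 listed interferon-stimulated genes outside the members, 3 were higher past 2-fold in this difference and 0 lower. They were Sp110 (1.75), Cxcl10 (1.32) and Ifi203 (1.06).

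The resting genotype difference was under 2-fold in each gene and ran one way in nearly all. Without LPS 41 of 45 members read higher in DKO than in WT cells by any amount, against 47% of 11379 genes and 53.9% of the 6610 with a mean of at least 500 units. No member passed 2-fold in either direction, where 0.466% of all genes were higher and 0.984% lower. The members' median log2 difference was 0.22, or 1.16-fold, against -0.02 over all genes and 0.02 over those of at least 500 units. Their quartiles were 0.08 and 0.39. Setting the array medians equal moved the members' median to 0.43 and that of all genes to 0.19, so the members' distance from all genes was 0.23 as reported and 0.24 there. At 1.5-fold, 2 members were higher, Zbp1 and Ifit2, and 1 lower, Ifi204, where 2.36% and 4.97% of all genes passed.

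Zbp1 and Ifit2 led the resting difference. Zbp1 read 897 in untreated DKO against 462 in untreated WT cells, 1.94-fold, and its second probe set read 568 against 348, a log2 difference of 0.70. Ifit2, a partner of Ifit1, read 3787 against 2431, 1.56-fold, and with LPS 5083 against 3414. Rtp4, a chaperone of receptors that also binds viral RNA, read 11810.3 against 8224, 1.44-fold, and with LPS 14337 against 12069. Its second probe set gave log2 differences of 0.04 at rest and 1.18 with LPS. In Zbp1 untreated DKO cells exceeded even WT cells with LPS, which read 676.

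The oligoadenylate synthetases, none of which passed 2-fold with LPS, had resting differences above the members' median. Oas1a read 7081 in untreated DKO against 5022 in untreated WT cells, Oas3 3212 against 2325, Oas2 2019 against 1551 and Oasl2 5192 against 3722, which are log2 differences of 0.50, 0.47, 0.38 and 0.48. Samd9l, an inhibitor of translation, read 4907 against 3439 (0.51; with LPS 7003 against 4971), and Bst2 6125 against 4469 (0.45). Ifi213 (0.42), Ifit3 (0.41), Ifi47 (0.40), Iigp1 (0.39), Gbp2 (0.35), Ifih1 (0.35), Ifi35 (0.31), Dtx3l (0.30) and Ifitm3 (0.29) came next. Other probe sets gave 0.02 for Dtx3l, 0.07 for Gbp2, 0.10 for Iigp1, 0.50 for Ifi213, and 0.68 and 0.20 for Ifi35.

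Several members with large LPS effects had resting differences near 0. Rsad2 had a resting log2 difference of 0.02, Mx1 of 0.03, Cmpk2 of 0.004, Gbp3 of 0.08, Ifit1 of 0.09 and Tor3a of 0.02. Other probe sets moved some of these: the 2 others of Rsad2 gave -0.13 and -0.25, and the second of Cmpk2 gave 0.57. Gbp2 stood at 0.35 by its brightest probe set and at 0.07 by its second. These resting differences use the same untreated arrays as the LPS effects, so the values are set side by side and no relation between them is computed. Lower in resting DKO cells were Ifi204 (823 against 1347, log2 -0.71), Oasl1 (502 against 590.0, -0.23), Eif2ak2 (1592 against 1717, -0.11) and Ifnar1 (1041 against 1042, -0.002). With LPS Eif2ak2 read 1928 in DKO against 1821 in WT cells, and at rest its other probe sets gave 0.21 and -0.16.

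With LPS the genotype difference kept its direction. Under LPS 41 of 46 members read higher in DKO than in WT cells, against 43.4% of 11236 genes, and the median was 0.24, or 1.18-fold, against -0.04 over all genes. Higher in both conditions were 36 of 45, against 24.2% of 10787 genes, and lower in both was 0, against 33.4%. By the brightest probe set the 9 that turned were Ifi204, Oasl1, Eif2ak2 and Ifnar1, lower in DKO cells at rest only, and Oas3, Isg20, Adar, Trim25 and Tor3a, lower in DKO cells with LPS only. Other probe sets did not all repeat this. With LPS those of Adar gave 0.35 and 0.50 and those of Tor3a 0.13 and 0.34, while those of Trim25 gave -0.22 and -0.12. At rest those of Eif2ak2 gave 0.21 and -0.16, and that of Ifnar1 gave -0.31. The comparisons at rest and with LPS share no array, but whether the cultures came from the same mice is not given. Across 45 members the differences at rest and with LPS had a Spearman rho of 0.29 and a Pearson r of 0.23, against 0.25 and 0.32 over 9981 genes.

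**Figure D3:**
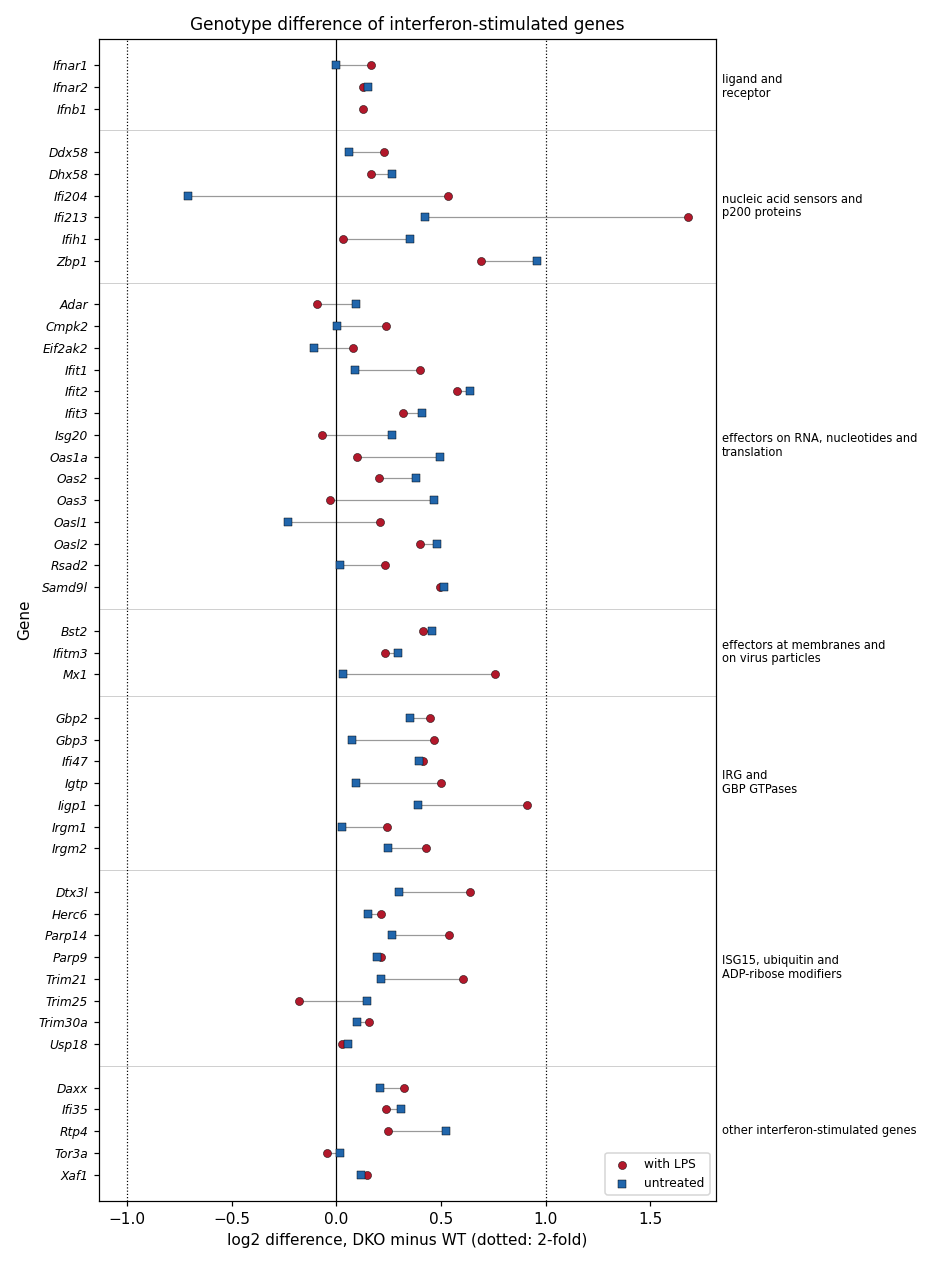
Genotype difference of each measured member as a log2 difference, DKO minus WT, with LPS (circles) and untreated (squares), 1 pair of arrays each, with dotted lines at 2-fold. Most points lie between 0 and 0.6, and Ifi213 with LPS, at 1.68, is the single point past 2-fold.

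Under LPS 1 member passed 2-fold, Ifi213, where 0.845% of genes were higher and 0.934% lower. It read 204 in DKO against 63.7 in WT cells, 3.20-fold, and by its second probe set 145 against 61.7 (log2 1.23). The WT value lay near the floor. With the floor at the 65th percentile it fell under that floor, so Ifi213 had a bound of at least 0.28 on the log2 scale in place of 1.68. The call was lost there. Iigp1, an IRG GTPase, read 397 against 211, 1.88-fold, and by its second probe set 168 against 67.9, a log2 difference of 1.30. Mx1 stood at 1.69-fold (989 against 584), Zbp1 at 1.62-fold (1093 against 676), Dtx3l at 1.56-fold (5822 against 3738) and Trim21 at 1.52-fold (3863 against 2539). These 6 were the members higher past 1.5-fold, where 4.03% of all genes were, and 0 were lower, where 5.03% were. Rsad2, highly responsive to LPS, stood at 0.23.

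By role the difference moved between conditions. IRG and GBP GTPases had a median log2 difference of 0.45 with LPS and 0.25 at rest. In both 7 of 7 were positive, against 43.4% of all genes with LPS and 47% at rest. The effectors on RNA, nucleotides and translation had 0.22 and 0.32, and the ISG15 and ubiquitin group 0.21 and 0.17. In Oas1a the difference was 0.10 with LPS and 0.50 at rest, and in Oas3 -0.03 and 0.47, while in Igtp it was 0.50 and 0.10 and in Gbp3 0.47 and 0.08. Whether these changes exceed the variation between cultures cannot be told with 1 array a group. For scale, the 2 brightest probe sets of a gene differed by a median of 0.20 at rest and 0.19 with LPS over 4999 and 4875 genes.

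Second probe sets had the sign of the brightest for 18 of 21 members at rest and 17 of 20 with LPS. Among members with both above the floor, the second was higher in DKO cells at rest for 18 of 21, against 43.8% of 4999 genes, with a median of 0.14. With LPS it was higher for 18 of 20, against 49.6% of 4875 genes, with a median of 0.31. They read the same RNA and repeat the reading, not the culture.

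**Figure D4:**
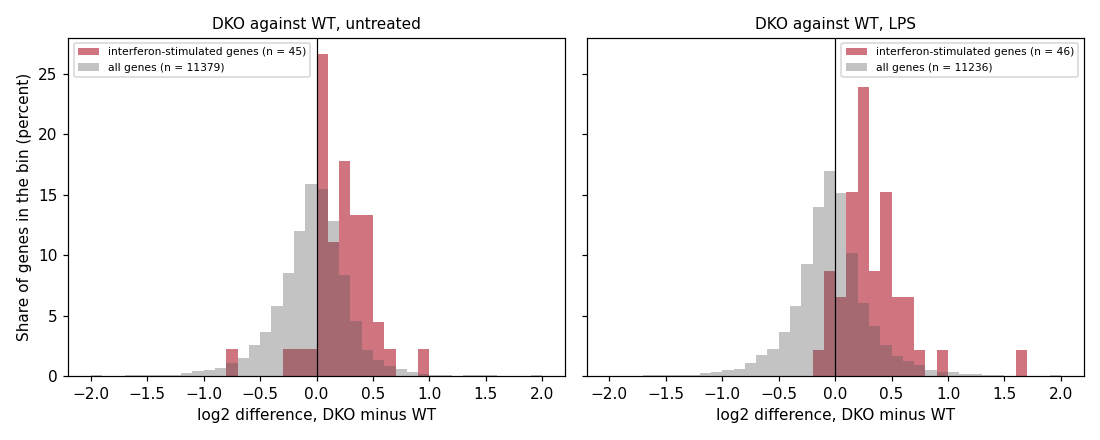
Share of genes, in percent, in bins of 0.1 of the log2 difference DKO minus WT, for the members and for all genes, untreated at left and with LPS at right. The members (45 and 46 genes) lie mostly right of 0, while all genes (11379 and 11236) centre at about 0.

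The macrophage markers moved with the resting difference. All 6 read higher in untreated DKO than in untreated WT cells, against 47% of all genes. Their median log2 difference was 0.30, with summed intensities of 86023 against 70382. With LPS 3 of 6 were higher, against 43.4% of all genes. The median was then 0.008 and the sums were 95087 against 91930, while the interferon-stimulated genes kept a median of 0.24. The markers' part in the resting result was not tested. Of the plasmacytoid dendritic cell list, Siglech and Ccr9 were under the floor on every array, and the other 4, among them the member Bst2, were all higher in untreated DKO cells (median 0.39). The list's sums were 13134 in DKO against 9926 in WT cells at rest, and 9124 against 7678 with LPS. Neutrophil sums ran the other way, 349 against 547 at rest and 430.3 against 554 with LPS, with S100a8 the only one of its markers above the floor. The part of these lists in the result was not tested either.

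No upstream gene passed 2-fold between genotypes. On the TLR4 to IRF3 route 8 of 10 listed genes were measured, with median differences DKO minus WT of 0.12 with LPS and 0.12 at rest. Irf7, the interferon-inducible factor that amplifies the response, stood out with 4286 in untreated DKO against 2484 in untreated WT cells (0.79) and 3818 against 2529 with LPS (0.59). Ikbke, a kinase for IRF3 and IRF7, was higher with LPS in both genotypes (log2 2.65 in DKO and 2.41 in WT cells), as was Cd14, the LPS co-receptor (1.32 and 1.56). Of interferon receptor signalling 10 of 11 were measured. With LPS 8 of 10 read higher in DKO cells, against 43.4% of all genes, with a median of 0.25 beside the members' 0.24. At rest 6 of 9 did, against 47% of all genes, with a median of 0.09. Irf1, a driver of GBP genes, was higher with LPS (2.73 in DKO and 2.46 in WT cells) while Irf8 was lower past 2-fold in DKO cells (-1.53) and short of it in WT cells (-0.97). Socs1, a feedback inhibitor, lay under the floor at rest and was at least 2.10-fold higher with LPS in DKO cells and at least 1.45-fold higher in WT cells. Stat2 (log2 genotype difference 0.03 with LPS and -0.02 at rest) and Irf9 (0.25 and 0.004), parts of ISGF3, passed 2-fold in no comparison.

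Interferon-stimulated genes outside the members leaned the same way. Of 61 listed, 53 were measured. At rest 37 of 50 read higher in DKO cells, against 47% of all genes, with a median of 0.24, and with LPS 44 of 51, against 43.4%, with a median of 0.28. Past 2-fold at rest 1 of 50 was higher, Mx2 (at least 2.18-fold), and 1 lower, Cxcl10, an interferon-type chemokine (257 against 541). Of all genes 0.466% were higher and 0.984% lower. With LPS 4 of 51 were higher and 0 lower, against 0.845% and 0.934% of all genes. The 4 were Mx2 (368 in DKO against 94.2 in WT cells), the chemokine genes Ccl12 (232 against 86.8) and Cxcl9 (107 against 44.5, a bound) and the nuclear body gene Sp110 (230.0 against 112). This list too was chosen with earlier results of these data known, so it is not independent evidence. Its median LPS effect was 0.09 in DKO and 0.04 in WT cells. With LPS 9 of 51 were higher past 2-fold in DKO cells, against 4.66% of all genes, and 4 of 50 in WT cells, against 3.36%, with Cxcl10 (log2 5.74 and 4.43), Ccl5 (3.75 and 3.05), Gbp6 (1.89 and 1.80) and Slfn2 (1.15 and 1.25) in both. In DKO cells Ccl12, Mx2, Helz2, Gbp7 and Cxcl9 were the others.

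**Figure D5:**
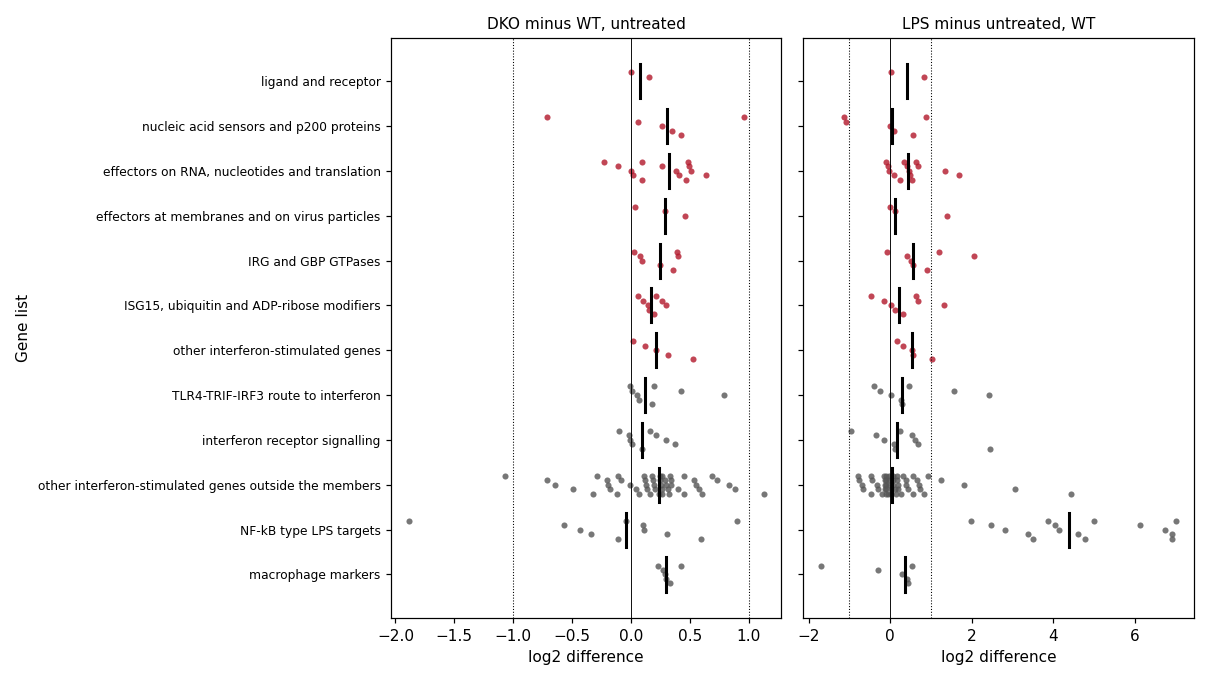
Log2 differences of single genes (points) and list medians (bars) for the member groups, in red, and for pathway, NF-kB type and macrophage marker lists, in grey. Left is DKO minus WT untreated and right is LPS minus untreated in WT cells, on different axis ranges. At left the medians of the 7 member groups lie between 0.08 and 0.32, and at right NF-kB type targets stand near 4.4 and all member groups under 0.6.

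Contrasting both, LPS effects of members ran from -0.79 to 2.15 in DKO cells and from -1.13 to 2.06 in WT cells, and resting genotype differences from -0.71 to 0.96. In 18 of 45 members, 40%, untreated DKO cells read above WT cells with LPS, against 56.8% of 9981 genes. NF-kB type targets had a genotype median of 0.46 with LPS over 16 genes and of -0.04 at rest over 11.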

How the data were processed

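Gene expression in 4 bulk cultures was read on an Affymetrix mouse array with 45101 probe sets. The authors deposited linear intensity values, and from the values themselves each array has a mean of 500 after trimming 2% at either end; the tool and settings are not given in the sources used here. Per the labels' protocols total RNA was amplified and biotin-labelled. No step was applied to normalize them again. Probe sets were named from the platform annotation: 34945 had 1 gene, 932 several and 9160 none, and 64 were controls. The brightest probe set stood for a gene, values under 52.9 units were floored, and log2 differences of arrays were taken. Each group has 1 array, so no test, error or p-value was computed, and the number of arrays limits the precision. The call rule was run on simulated arrays that held known changes and no noise. That run checks the arithmetic and cannot give an error rate for the calls. Members and lists were chosen with earlier results of these data known. Values on all 4 arrays were given for members past 2-fold and for the 4 largest differences in each comparison and direction. For most named pathway genes only differences, or values on some of the arrays, were given. Alternatives changed the scaling, normalization, floor, offset, choice of probe set and threshold. Promoters came from RefSeq (GRCm38.p6). Python 3.11.15, numpy 2.4.6, pandas 2.3.3, scipy 1.17.1 and matplotlib 3.10.9 were used.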

Additional observations from a re-analysis of the deposited data

Results flagged for a closer look

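Ifi204 and Ifi213 stood out because their LPS effects differed most between the 2 genotypes, lower past 2-fold in WT cells and close to 0 in DKO cells. The LPS effect in DKO cells minus that in WT cells was 1.25 on the log2 scale for Ifi204 and 1.25 for Ifi213. Ifi204 had effects of 0.12 in DKO and -1.13 in WT cells, and Ifi213 of 0.16 and -1.09. The effects in DKO cells were smaller than the median gap of 0.20 between the 2 brightest probe sets of a gene. In WT cells the call for Ifi213 was lost under 5 of 7 other ways of processing, and that for Ifi204 under 1. The difference was not tested, since each group has 1 array.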

How the results depend on the processing

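No paired analysis was possible because each group has 1 array. Among the members, the count higher in DKO than WT cells with LPS was 0 with the floor at the 65th percentile, 2 with the probe sets of a gene summarised by their median and 6 at 1.5-fold, against 1 as reported. Untreated, it was 1 with array medians set equal, 1 with quantile normalization and 2 at 1.5-fold, against 0, and the count lower was 1 at 1.5-fold. The untreated median was 0.4271 with array medians set equal, where all genes stood at 0.1922. At 1.5-fold LPS gave 18 higher and 1 lower in DKO cells and 14 higher in WT cells. Lower with LPS in WT cells were 0 with array medians set equal and 1 each with the floor at the 65th percentile, the median of probe sets, the offset of 16 units and quantile normalization, against 2. The difference of LPS effects passed 2-fold in 1 member with the floor at the 65th percentile, against 2, and its members' median was -0.18 with array medians set equal, where all genes stood at -0.26. Under all settings run, 41 to 43 members read higher in untreated DKO cells, and their median exceeded that of all genes by 0.21 to 0.27. The causes were not tested. Dim members, Ifnb1 and Ifi213 above all, are limited by signal near the floor.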
